A study of Mus musculus with 19 samples.

Results

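Clones of CD8 T cells whose T cell receptor carried a chain with the amino acid ending SGSWQLIF were compared with all other clones that the authors named in the same tumours. Members were chosen by the measured receptor sequence, read from the clonotype names, each of which joins the CDR3 sequences of a cell's receptor chains. The ending was found in 19 of 71 named clonotypes and in 4061 of 9030 cells of named clonotypes, from 4 tumours. In each of the 19 names it stood before the last chain, which was read as the beta chain, and in none of the 71 in that last chain. No clonotype lay near the rule, since no other chain shared more than the final 3 letters of the ending. Clusters, cell-cycle phase and RNA content come from gene expression and had no part in the choice.

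A223, a mouse model of squamous cell carcinoma, was grown in C57BL/6J animals after injection. From tumours that regressed (replicates 2 and 3) or grew (replicates 2 and 3), CD8 T cells were flow-sorted after liberase digestion, and expression and receptor were read with the 5′ kit. The age and sex of the mice and the number of mice behind a library are not stated in the labels. Expression in replicate 1 of each state was read with the 3′ kit and was not used for clones. The labels also list a receptor library of regressing replicate 1, which was not used here. No cell of the 3 spleen libraries carried one of the 71 names. The clonotype names also include a pooled label for top spleen clones, which no tumour cell used here carried. The names may thus have been given by tissue, so they cannot show whether these clones were absent from spleen. The 4 libraries held 7832, 7276, 4262 and 1727 cells, with 24580139 to 58661165 UMIs, the counts of distinct RNA molecules. Of 8985 cell barcodes among named cells, 45 occurred in more than 1 library, and 0 of these had the same clonotype in both. The T cell identity of the cells could not be checked against marker genes, because the table used holds no gene values.

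The T cell receptor is a pair of an alpha and a beta chain. The CDR3 of each, the loop that contacts peptide and MHC most directly, is built by random joining of gene segments, and its end is given by the joining segment. The ending SGSWQLIF is that of the mouse alpha joining segment Traj22, so chains with it share the segment and differ in the letters before it. T cells with similar receptors may recognise the same antigen, and tools such as GLIPH group receptors by such likeness. In tumours, CD8 T cells that meet antigen pass through activation and division, and with lasting stimulation reach a state called exhaustion.

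The clones shared their ending but had 12 different alpha chains and 8 different beta partners. In what follows alpha chains carry numbers and beta chains letters, both in falling order of shared-ending cells, so alpha 1 stood in 2291 cells and alpha 12 in 20, beta A in 2375 and beta H in 20. The alpha chains were 13 to 16 letters long, with a median of 15.5. The 59 other alpha chains of named clonotypes were 11 to 17 letters long, with a median of 13. In 10 of the 12 chains the letter before the ending was a serine. The same number, 10 of 12, began with the same 4 letters. Some alpha chains without the ending began with these 4 letters too. Neither trait was counted over the 59 other alpha chains, so neither is shown to be particular to these clones. Whether these letters are given by the gene segments was not tested. Alpha 2 was read with 3 beta partners and alpha 4 with 2, and each of the other 10 alpha chains with 1.

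SGSWQLIF was the most frequent alpha ending of its length among named clonotypes, with 45.0% of named cells. The next was found in 6 names with 4 different chains and 898 cells, or 9.94% of named cells. After it came 2 endings in 5 names each, with 436 and 259 cells. The rule chose SGSWQLIF, so its rank is a description with no test. Of its 4061 cells 2137 were of 1 clone, alpha 1 with beta A in regressing replicate 3. Endings that differed in any letter were counted apart. The pooled remaining receptor-labelled cells have no sequence in the table, so their endings are not known here.

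The beta partners were 12 to 16 letters long, with a median of 14.5, against 10 to 16 and a median of 14 for the 50 beta chains of other named clonotypes. Beta A was read with alpha 1, 2 and 4, in 2375 of the 4061 cells (58.5%), of which 2374 were in regressing replicate 3 and 1 in growing replicate 3. Beta B was read with 5 alpha chains and was the only partner seen in all 4 tumours. Beta C (with alpha 3) and beta D (with alpha 6 and 9) were seen in 2 tumours each, with 349 and 264 cells. Beta E (alpha 7, 143 cells), F (alpha 8, 93 cells), G (alpha 2, 92 cells) and H (alpha 12, 20 cells) were seen in 1 tumour each.

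Beta B was the partner that recurred most. It was joined to shared-ending alpha chains in 384 cells of regressing replicate 2, 213 of regressing replicate 3, 81 of growing replicate 2 and 47 of growing replicate 3. The alpha chains differed between tumours: alpha 5 and 10 were seen with it in regressing replicate 2, alpha 4 in regressing replicate 3 and alpha 11 in growing replicate 3. Alpha 2 was seen with it in 3 tumours. Counted from 1 at the first residue of beta B, beta H differs from it by G10D. The beta chain of the largest other clone of regressing replicate 2 (560 cells) differs from beta B by G7R. Of the 8 partners, only beta B was also found in a named clonotype without the ending. That clonotype had 44 cells in regressing replicate 3, where 77 further cells carried the same 2 chains together with alpha 2 and were members.

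Cell numbers of the clones differed widely. In regressing replicate 3, the clone of alpha 1 and beta A had 2137 cells, or 79.7% of all shared-ending cells there, and it had 1 cell in growing replicate 3. The next there was a name with alpha 2, alpha 1 and beta A, with 153 cells. Alpha 4 had 129 cells with beta B and 84 with beta A, and alpha 8 had 93 with beta F. Alpha 2 with beta B had 77 cells as part of a 3-chain name and 7 alone. One clone thus made up most of the shared-ending cells of this tumour.

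In regressing replicate 2 the cells were spread over 9 clonotypes. Alpha 5 with beta B had 199 cells, or 24.6% of them, alpha 2 with beta B 108, and alpha 10 with beta B 77. Alpha 3 with beta C had 100 and alpha 9 with beta D 89. Alpha 7 with beta E had 73 in a 2-chain and 70 in a 3-chain name, and alpha 2 with beta G 51 and 41. Each had fewer cells than the largest other clone there, which had 560.

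The growing tumours held fewer such clonotypes. In growing replicate 2 alpha 6 with beta D had 138 cells in a 3-chain name (53.9% of the shared-ending cells) and 37 in a 2-chain name, and alpha 2 with beta B had 81. In growing replicate 3 alpha 3 with beta C had 249 (78.5%), alpha 11 with beta B 47, alpha 12 with beta H 20 and alpha 1 with beta A 1. Of the 19 clonotypes 3 were seen in more than 1 tumour, as were 5 of the 52 others. All 3 (alpha 3 with beta C, alpha 2 with beta B and alpha 1 with beta A) were seen in both states.

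As a share of cells in named clonotypes, the shared ending took 31.2% in regressing replicate 2 (exact Clopper-Pearson 95% interval 29.4 to 33.0), 69.6% in regressing replicate 3 (68.1 to 71.0), 15.9% in growing replicate 2 (14.2 to 17.8) and 32.3% in growing replicate 3 (29.4 to 35.3). The states overlapped, since growing replicate 3 lay above regressing replicate 2. The regressing mean was 50.4% ± 27.1 and the growing mean 24.1% ± 11.6 (SD over 2 libraries, two-sided exact permutation p = 0.667). The difference was -26.3 percentage points, which became -7.11 when regressing replicate 3 was left out and -45.5 when regressing replicate 2 was. Counted as clonotypes, 9 of 23 and 7 of 18 named clonotypes of the regressing tumours carried the ending, and 3 of 20 and 4 of 21 of the growing ones. These shares, 39.1% and 38.9% against 15% and 19.0%, did not overlap, and their exact permutation p = 0.33 is the smallest that 2 libraries against 2 allow. The counts take a 3-chain name and a 2-chain name it contains as separate clonotypes, which occurred in both regressing tumours and in growing replicate 2. They also include names of 1 cell, as alpha 1 with beta A in growing replicate 3. The authors' rule for naming a clonotype is not stated in the labels.

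The authors' receptor similarity groups, which the column name ties to GLIPH, cut across the shared ending. Groups are built from receptor sequences, as is the rule, so the following is a description with no test. Of the 19 clonotypes 14 were in a group, with 3733 of the 4061 cells (91.9%), and of the 52 others 16 were, with 2543 of 4969 cells (51.2%). The 14 fell into 4 groups that followed the beta chain: Group 1 held the names with beta B or H, Group 2 those with beta A, Group 4 that with beta C and Group 8 those with beta D. Each group so held only part of the clones with the ending, and Group 1 also held 4 other named clonotypes. Group 2 had 2490 cells in these tumours, of which 95.4% were named shared-ending cells, while for Group 1 it was 41.4% of 1798 cells.

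**Figure D1:**
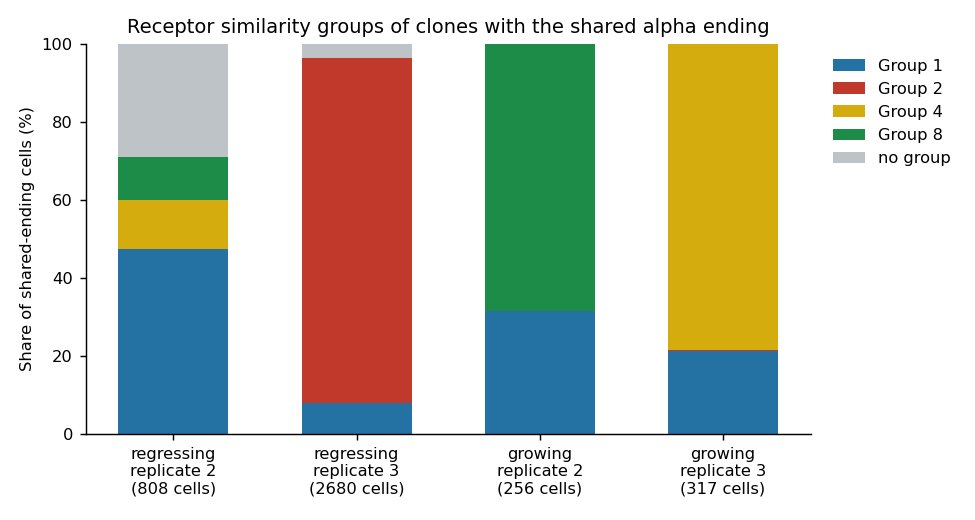
Share of shared-ending cells (%) in each receptor similarity group of the authors, by tumour library, with the cell number under each bar; bars start at 0. Group 2 took 88.6% in regressing replicate 3, Group 4 took 78.5% in growing replicate 3 and Group 8 took 68.4% in growing replicate 2, while Group 1 was the only one above 5% in every tumour.

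Group 1 took 47.5%, 7.95%, 31.6% and 21.1% of the shared-ending cells in the 4 tumours, in the order of the plot of groups by tumour. Group 8 was seen in regressing replicate 2 (11.0%) and growing replicate 2 (68.4%), and Group 4 in regressing replicate 2 (12.4%) and growing replicate 3 (78.5%). The beta partner with the most shared-ending cells was B in regressing replicate 2, A in regressing replicate 3, D in growing replicate 2 and C in growing replicate 3. In regressing replicate 2, 4 clonotypes with 235 cells were in no group, and in regressing replicate 3 it was 1 clonotype with 93 cells.

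No class of cell states differed between clones with the shared ending and other named clones by more than the spread between the 4 tumours. In 3 of 4 tumours more of their cells than of the other named clones' lay in exhausted clusters, and in 1 tumour fewer. Exhausted clusters (Activated Exhausted and Alternative Exhausted) held 31.3% of shared-ending and 42.2% of other named cells in regressing replicate 2, and 61.5% and 40.0% in regressing replicate 3. They held 56.6% and 49.7% in growing replicate 2, and 45.1% and 43.4% in growing replicate 3. The mean difference was 4.78 ± 13.4 percentage points (SD, n = 4 tumours, two-sided exact sign-flip p = 0.625, adjusted p = 0.625 over 6 classes), and without regressing replicate 3 it was -0.766. An exact sign-flip test of 4 tumours cannot go below p = 0.13.

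**Figure D2:**
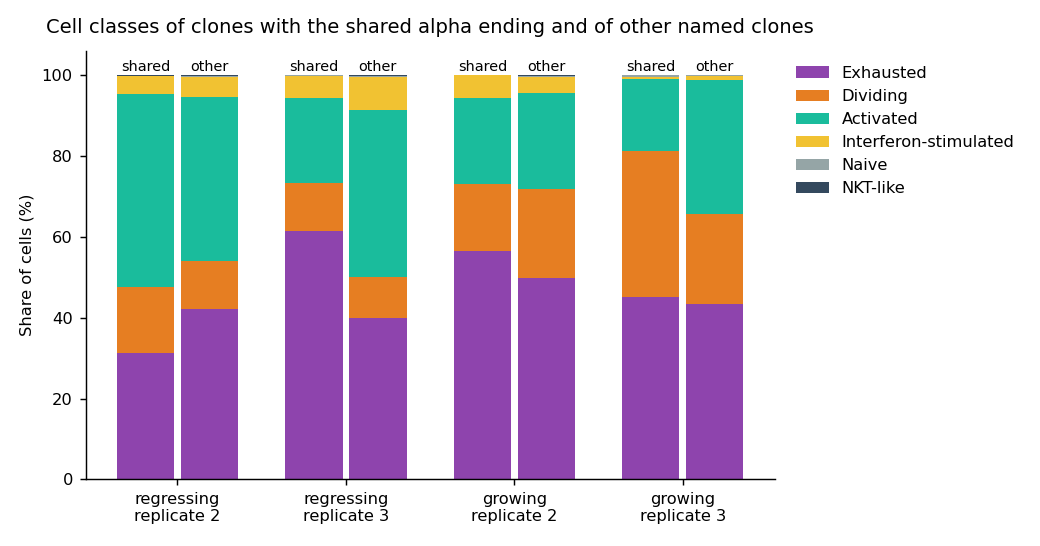
Share of cells (%) in each class of the authors' clusters, for clones with the shared ending (left bar of each pair) and other named clones (right bar), by tumour library; bars start at 0. The exhausted share was lower with the shared ending in regressing replicate 2 (31.3% against 42.2%) and higher in regressing replicate 3 (61.5% against 40.0%), so the tumours differed in direction.

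Activated cells (Initial Activation, Intermediate Activation and Highest Activated) were the other large class. They held 47.8% of shared-ending and 40.6% of other named cells in regressing replicate 2, 21.2% and 41.5% in regressing replicate 3, 21.5% and 23.7% in growing replicate 2, and 17.7% and 33.1% in growing replicate 3. The share was lower with the ending in 3 of 4 tumours, with a mean difference of -7.72 ± 12.5 percentage points (exact sign-flip p = 0.375, adjusted p = 0.625), and -3.52 without regressing replicate 3. Without the largest shared-ending clone of each tumour this difference was 1.97 and that of exhausted cells -1.51, both with the opposite sign.

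Dividing cells, the 3 Dividing clusters together, did not differ beyond the spread between tumours either. They held 16.3% against 11.9% in regressing replicate 2, 11.9% against 10.1% in regressing replicate 3, 16.4% against 22.2% in growing replicate 2 and 36.3% against 22.3% in growing replicate 3. The mean difference was 3.60 ± 8.18 percentage points (exact sign-flip p = 0.50, adjusted p = 0.625), higher with the ending in 3 of 4 tumours. In growing replicate 3 the dividing share was 41.0% in alpha 3 with beta C (249 cells), 35% in alpha 12 with beta H (20 cells) and 12.8% in alpha 11 with beta B (47 cells). The mean difference was 0.140 percentage points without growing replicate 3, 6.75 without growing replicate 2 and -0.199 without the largest clone of each tumour.

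The other classes were small. Interferon-stimulated cells held 4.46%, 5.37%, 5.47% and 0.631% of shared-ending cells in regressing replicate 2, regressing replicate 3, growing replicate 2 and growing replicate 3, against 4.94%, 8.02%, 3.99% and 1.05% of the other named cells (mean difference -0.520 ± 1.69 percentage points, exact sign-flip p = 0.625). Naive clusters held 4 shared-ending and 10 other named cells in all, and the NKT-like cluster 1 and 5. At these numbers no difference was detectable.

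Of single clusters, Alternative Exhausted had the largest mean difference in percentage points. It held 12.1% of shared-ending and 10.1% of other named cells in regressing replicate 2, 36.7% and 17.4% in regressing replicate 3, 35.9% and 24.1% in growing replicate 2, and 25.9% and 19.6% in growing replicate 3. The share was higher with the ending in 4 of 4 tumours, by 9.87 ± 7.44 percentage points, with a difference in log2 odds of 0.78 ± 0.36 (SE). It did not pass limma's test (adjusted p = 0.374 over 13 clusters). The exact sign-flip test gave p = 0.13, the smallest it allows for 4 tumours (adjusted p = 0.812). The adjusted p of limma ranged from 0.0762 to 0.940 over the alternatives. Without the largest clone of each tumour the difference in log2 odds was 0.30.

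None of the 13 clusters passed at an adjusted p of 0.05 with limma (0 of 13, 0%). The exact sign-flip test could pass none, since with 4 tumours it cannot go below p = 0.13. With limma at an unadjusted p of 0.05 it was 1 of 13 (7.69%), the cluster Naive 1, which held 2 shared-ending and 2 other named cells. Initial Activation was lower with the ending in 4 of 4 tumours, at 15.7% against 17.9%, 6.64% against 13.1%, 5.47% against 5.54% and 2.84% against 8.89% (log2 odds -0.74 ± 0.40, limma adjusted p = 0.413). Its mean difference was -3.71 ± 3.09 percentage points. Without the largest shared-ending clone of each tumour the direction turned, with log2 odds of 0.13. In growing replicate 2 both shares were about equal.

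**Figure D3:**
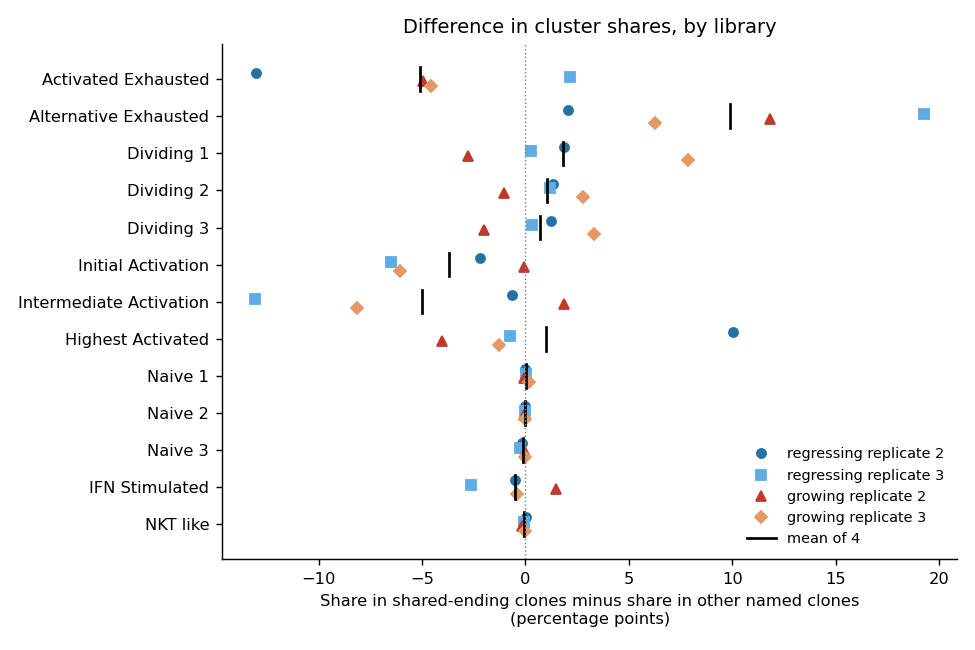
Difference in the share of each cluster between clones with the shared ending and other named clones (percentage points, x axis), with 1 symbol per tumour library and a bar at the mean of the 4. Alternative Exhausted lay above 0 in all 4 tumours (2.07 to 19.3) and Initial Activation below 0 in all 4 (-6.50 to -0.0745), and Activated Exhausted, Intermediate Activation and Highest Activated lay on both sides.

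The plot of cluster differences shows how the remaining clusters split. Activated Exhausted was lower with the ending in 3 of 4 tumours, with differences of -13.0, 2.17, -4.94 and -4.55 percentage points (limma adjusted p = 0.699). Intermediate Activation differed by -0.661, -13.1, 1.85 and -8.13 percentage points (adjusted p = 0.50). Highest Activated differed by 10.0, -0.750, -4.01 and -1.29 percentage points (adjusted p = 0.699), with regressing replicate 2 alone above 0. The adjusted p was 0.699 for each of Dividing 1, Dividing 2, Dividing 3, IFN Stimulated, Naive 2 and NKT-like, and 0.932 for Naive 3.

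Clones with the same ending differed widely from each other. In regressing replicate 2, the exhausted share of the 9 shared-ending clones of 20 or more cells ran from 12.3% to 62.9%, with a median of 32.5%, and that of 13 other clones from 4.49% to 58.7%, with a median of 32.8%. In regressing replicate 3, 6 shared-ending clones ran from 34.9% to 68.0% (median 54.7%) and 11 others from 5.45% to 59.3% (median 39.6%). In growing replicate 2, 3 ran from 48.1% to 63.0% (median 51.4%) and 13 others from 6.38% to 61.7% (median 51.2%). In growing replicate 3, 3 ran from 27.7% to 50% (median 48.2%) and 10 others from 20% to 73.0% (median 48.0%). The ranges overlapped in every tumour. Cells of 1 clone in 1 tumour share their source, so no test was made over clones.

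**Figure D4:**
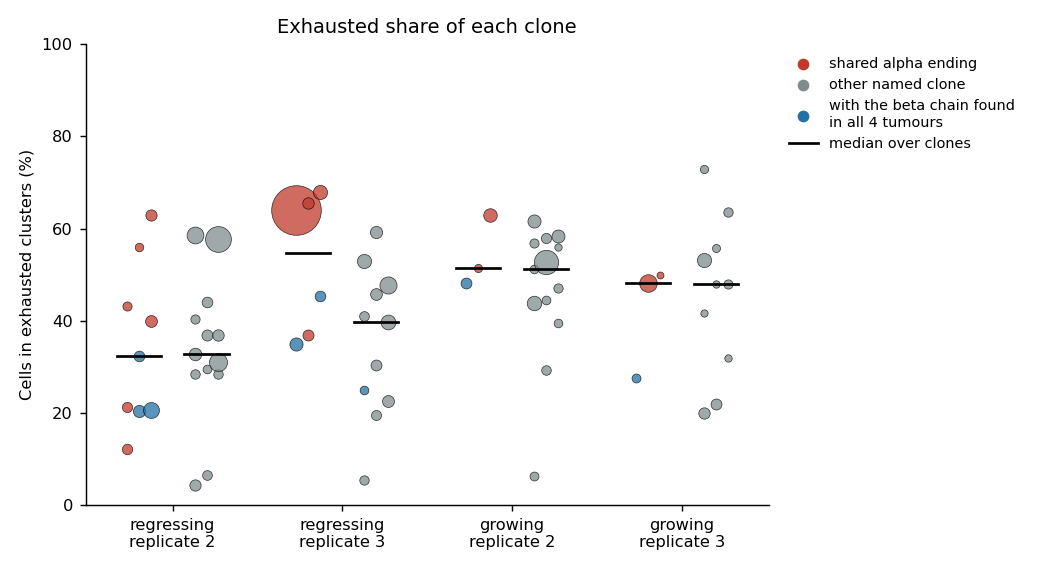
Share of cells in exhausted clusters (%, y axis) for each named clone of 20 or more cells, by tumour library, with shared-ending clones on the left of each pair and other named clones on the right; the area of a point grows with the clone's cell number, bars are medians over clones, and blue points have the beta chain found in all 4 tumours. The ranges of both sides overlap in every tumour, and the blue shared-ending clones lie at 20.4% to 32.5% in regressing replicate 2, 34.9% and 45.5% in regressing replicate 3, 48.1% in growing replicate 2 and 27.7% in growing replicate 3.

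Cells with beta B had a lower exhausted share than the remaining shared-ending cells in 4 of 4 tumours. The shares were 22.9% (384 cells, exact 95% interval 18.8 to 27.5) against 38.9% (424 cells, 34.2 to 43.7) in regressing replicate 2, and 39.4% (213 cells, 32.8 to 46.3) against 63.4% (2467 cells, 61.4 to 65.3) in regressing replicate 3. They were 48.1% (81 cells, 36.9 to 59.5) against 60.6% (175 cells, 52.9 to 67.9) in growing replicate 2, and 27.7% (47 cells, 15.6 to 42.6) against 48.1% (270 cells, 42.1 to 54.3) in growing replicate 3. The remaining cells were mostly of 1 clone in regressing replicate 3 (2137 of 2467 cells) and growing replicate 3 (249 of 270). In growing replicate 2 all 175 had alpha 6 and beta D. The cells with beta B were of 1 clonotype in each growing tumour. The contrast in these tumours is thus largely between single clones. The intervals cover counting error only. This beta chain was singled out after its values were seen, so the difference has no test.

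Activated clusters held more of the cells with this beta chain in 3 of 4 tumours. The shares were 55.5% against 40.8% in regressing replicate 2, 44.6% against 19.1% in regressing replicate 3, 19.8% against 22.3% in growing replicate 2 and 57.4% against 10.7% in growing replicate 3. Growing replicate 2 was the exception. The dividing share with this chain was 16.7% against 16.0% in regressing replicate 2, 4.23% against 12.6% in regressing replicate 3, 27.2% against 11.4% in growing replicate 2 and 12.8% against 40.4% in growing replicate 3. It was thus higher in 2 tumours and lower in 2, and the largest gap was in growing replicate 3.

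Most cells with beta D were exhausted. In regressing replicate 2 alpha 9 with beta D had 62.9% of its cells in exhausted clusters (exact 95% interval 52.0 to 72.9), with 43.8% in Alternative Exhausted and 2.25% in Highest Activated. In growing replicate 2 the 2 clonotypes of alpha 6 and beta D had 60.6% (52.9 to 67.9) in exhausted clusters. The intervals overlapped, which does not show that the shares are alike, and the tumours differed in state and the clones in alpha chain. In growing replicate 2 the 3-chain name had 63.0% (54.4 to 71.1) and the 2-chain name 51.4% (34.4 to 68.1, 37 cells). Other named cells had 42.2% in exhausted clusters in regressing replicate 2 and 49.7% in growing replicate 2.

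Among the shared-ending clones of regressing replicate 2, the lowest exhausted share was that of the 2-chain name of alpha 7 and beta E, at 12.3%, with 35.6% in Highest Activated. The 3-chain name had 21.4% and 37.1%. The largest shared-ending clone there, alpha 5 with beta B, had 20.6% in exhausted and 32.7% in Highest Activated clusters. The largest other clone, whose beta chain differs from beta B by G7R, had 57.7% in exhausted clusters (53.5 to 61.8), and Activated Exhausted alone held 51.6% of its cells. The 3 clones with beta B in the same tumour ran from 20.4% to 32.5% in exhausted clusters.

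In regressing replicate 3 beta A was read with different alpha chains. The clone with alpha 4 had a lower exhausted share than the names with alpha 1, which was not tested. Alpha 1 with beta A had 64.0% of its cells in exhausted clusters (exact 95% interval 61.9 to 66.0), and Alternative Exhausted alone held 39.4%. The 3-chain name of alpha 2, alpha 1 and beta A (153 cells) had 68.0% (60.0 to 75.3) and 39.9%. Alpha 4 with beta A (84 cells) had 36.9% (26.6 to 48.1) and 8.33%. Alpha 4 with beta B had 34.9% (26.7 to 43.8) and 1.55%, near to the clone that shares its alpha chain. S phase was called in 45.2% and 38.8% of the cells of the alpha 4 clones against 25.5% in alpha 1 with beta A, and their median UMIs per cell were 5351.5 and 5741 against 7848. Whether these names are separate clones or mixed readings of chains was not tested.

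Alpha 8 with beta F, in no similarity group, had the highest Alternative Exhausted share of the shared-ending clones of 20 or more cells, at 51.6% of its 93 cells, and 65.6% in exhausted clusters together (55.0 to 75.1). Dividing clusters held 3.23% of its cells. The largest other clone of that tumour had 47.9% in exhausted clusters (41.3 to 54.5). Those of growing replicates 2 and 3 had 52.7% and 53.2%.

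Clonotypes seen in both states can be set side by side. Alpha 3 with beta C had 40% of its 100 cells in exhausted clusters in regressing replicate 2 (exact 95% interval 30.3 to 50.3) and 48.2% of its 249 cells in growing replicate 3 (41.8 to 54.6). Its dividing share was 15% (8.65 to 23.5) and 41.0% (34.8 to 47.4). Its cells in growing replicate 3 were the more deeply read, at a median of 14781 UMIs against 5091.5. Alpha 2 with beta B had 20.4% of its 108 cells in exhausted clusters in regressing replicate 2 (13.2 to 29.2) and 48.1% of its 81 cells in growing replicate 2 (36.9 to 59.5). In 7 cells of regressing replicate 3 it was 57.1% (18.4 to 90.1). A 3-chain name with both of these chains had 45.5% of its 77 cells in exhausted clusters in regressing replicate 3 (34.1 to 57.2). With 1 tumour on each side of most of these contrasts, state and tumour cannot be told apart.

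Phase calls, which score genes of S and G2M phase in each cell, gave no difference beyond the spread between tumours. S phase was called in 26.1% of shared-ending and 27.0% of other named cells in regressing replicate 2, 26.8% and 24.4% in regressing replicate 3, 25.8% and 25.4% in growing replicate 2, and 36.0% and 23.8% in growing replicate 3. The mean difference was 3.49 ± 5.94 percentage points (exact sign-flip p = 0.375, adjusted p = 0.75 over 3 phases), and 0.60 without growing replicate 3. G2M was called in 10.5% against 8.37%, 9.55% against 9.13%, 8.59% against 12.9% and 16.4% against 13.0% (mean difference 0.439 ± 3.37, exact p = 0.875). G1 differed by -3.93 ± 8.30 percentage points (exact p = 0.50), and by -0.0346 without growing replicate 3 and -6.54 without growing replicate 2.

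In growing replicate 3 S calls differed between the shared-ending clones. They were made in 39.4% of the 249 cells of alpha 3 with beta C (exact 95% interval 33.2 to 45.7), 40% of the 20 cells of alpha 12 with beta H (19.1 to 63.9) and 17.0% of the 47 cells of alpha 11 with beta B (7.65 to 30.8). The median UMIs per cell of these clones were 14781, 12328.5 and 11192, against 11272.5 in other named cells. Without the largest clone of each tumour the mean S-phase difference was 3.27 percentage points. The part of depth in the phase calls was not tested. Outside the Dividing clusters the S-phase difference over the 4 tumours was 2.87 ± 5.66 percentage points (exact sign-flip p = 0.375).

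RNA content per cell did not differ beyond the spread between tumours. Median UMIs per cell were 5352 with the ending and 5193 in other named clones in regressing replicate 2, 7597.5 and 6933 in regressing replicate 3, 7314 and 8122 in growing replicate 2, and 13555 and 11272.5 in growing replicate 3. The ending had the higher median in 3 of 4 tumours, with a mean log2 difference of 0.073 ± 0.17 (exact sign-flip p = 0.50, adjusted p = 1.0 over 5 measures). It was 0.0081 without growing replicate 3, 0.15 without growing replicate 2 and -0.051 without the largest clone of each tumour. Median genes per cell were 1794 against 1776.5, 2321 against 2210, 2173 against 2328 and 3213 against 2949.5 (mean log2 difference 0.027 ± 0.095, exact p = 0.625).

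Mitochondrial genes gave a median of 2.03% of UMIs with the ending and 1.93% in other named clones in regressing replicate 2, 1.68% and 1.73% in regressing replicate 3, 2.15% and 2.13% in growing replicate 2 and 1.66% and 1.69% in growing replicate 3 (mean difference 0.0111 ± 0.0667 percentage points, exact sign-flip p = 0.875). The median S score differed by 0.0041 ± 0.0127 (exact p = 0.75) and the median G2M score by -0.000184 ± 0.00123 (exact p = 1.0), on the scale of the deposited scores. Outside the Dividing clusters the G2M score was lower with the ending in 4 of 4 tumours, with a mean difference of -0.00206 ± 0.00148, at the smallest p the exact sign-flip test allows (p = 0.13, adjusted p = 0.625).

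**Figure D5:**
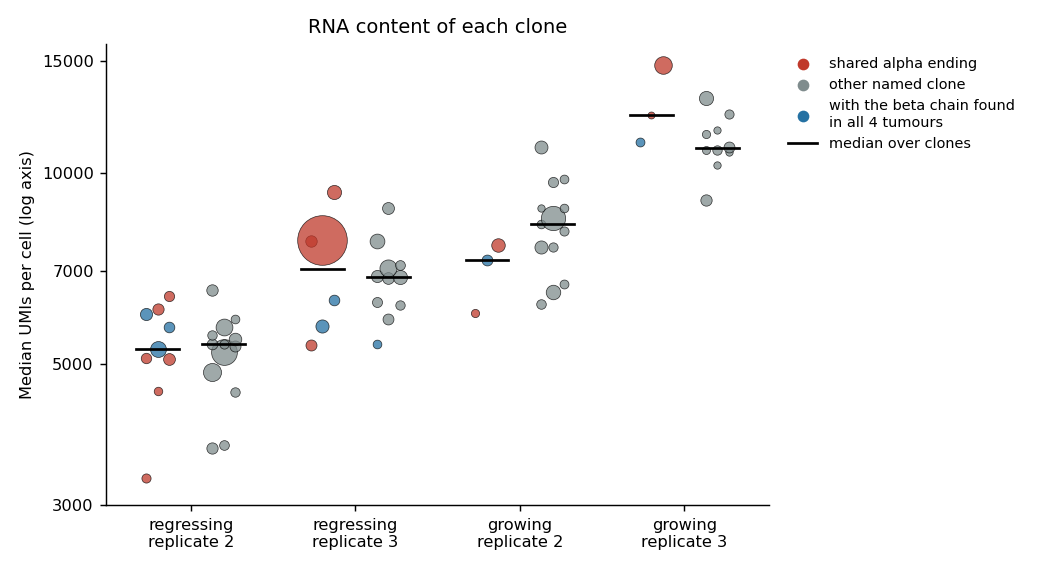
Median UMIs per cell (log y axis) of each named clone of 20 or more cells, by tumour library, with shared-ending clones on the left of each pair and other named clones on the right; the area of a point grows with the clone's cell number, bars are medians over clones, and blue points have the beta chain found in all 4 tumours. The clone of alpha 3 and beta C in growing replicate 3 lies highest at 14781, and the ranges of both sides overlap in every tumour.

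The plot of UMIs by clone shows the highest medians in growing replicate 3 on both sides. In regressing replicate 2 the medians of shared-ending clones ran from 3310 to 6409.5 and those of others from 3692 to 6533.5. In regressing replicate 3 they ran from 5351.5 to 9339 and from 5376.5 to 8801.5, in growing replicate 2 from 6017 to 7702 and from 6212.5 to 10971, and in growing replicate 3 from 11192 to 14781 and from 9062 to 13098.5. Some shared-ending clones lay outside the range of the others of their tumour. Above it were the 3-chain clone of alpha 2, alpha 1 and beta A in regressing replicate 3 and the clone of alpha 3 and beta C in growing replicate 3. Below it were the 2-chain clone of alpha 2 and beta G in regressing replicate 2, alpha 4 with beta A in regressing replicate 3 and the 2-chain clone of alpha 6 and beta D in growing replicate 2.

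Of the 19 names 5 had 3 chains. A name with 3 chains had a higher median of UMIs than the name with 2 of its chains in the same tumour in 5 of 5 pairs in which the latter had 20 or more cells, by 1.17 to 1.37 times. For alpha 2, alpha 1 and beta A it was 9339 against 7848 for alpha 1 and beta A, and for alpha 6 and beta D 7702 against 6017. Whether cells with 3 chains are doublets was not tested.

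The difference between the sides was not shown to differ between the tumour states. For exhausted cells it averaged 5.25 percentage points in regressing and 4.32 in growing tumours (exact permutation p = 1.0). For dividing cells it averaged 3.13 and 4.07 (exact permutation p = 1.0), and for activated cells -6.58 and -8.85 (exact permutation p = 1.0). Interferon-stimulated cells had -1.57 in regressing and 0.527 in growing tumours (exact permutation p = 0.33, the smallest that 2 libraries against 2 allow, adjusted p = 1.0). The S-phase share had 0.721 and 6.26 (exact permutation p = 0.667), and with 2 libraries a state no such test can reach 0.05.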

How the data were processed

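The deposited per-cell table of 9 expression libraries was used. Per the submitters' processing notes the reads were processed with Cell Ranger; its version and the genome build are not given. The authors deposited the count of UMIs and of genes per cell without normalisation, the mitochondrial percent of UMIs, and, per the file headers, an S and a G2M score. Cluster, phase, clonotype and similarity group names are theirs. A filter at 500 genes or 10% mitochondrial UMIs would remove 0 cells. No doublets were called, and whether the authors removed any is not stated in the labels.

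Cells of named clonotypes in the 5′ tumour libraries were split by the ending, with the library as the replicate. Shares of 13 clusters were tested with limma 3.58.1 (R 4.3.3) on log2 odds with 0.5 cell added, the library as a block and Benjamini-Hochberg adjustment. A run on simulated data came first, with changes set in Alternative Exhausted and Initial Activation. Its spread between the sides was a fixed setting and not estimated from these data, so it does not gauge the test here. Classes, which join clusters by name, phases and RNA content were tested with two-sided exact sign-flip tests over 4 libraries, and states with exact permutation tests, 2 against 2 (Python 3.11.15, SciPy 1.17.1). Single shares carry exact Clopper-Pearson 95% intervals for counting error. The labels do not say that libraries came from separate mice, so p-values measure the spread between libraries. All member clonotypes and clusters were named, with the largest other clone of each library and any that shares a beta chain with a member; clones of 20 or more cells were described. Chains are numbered, and their letters beyond the ending are not printed. The other endings and the beta chain that differs by G7R were singled out after their values were seen. Members, lists and tests were chosen with earlier results of these data known.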

Additional observations from a re-analysis of the deposited data

Results flagged for a closer look

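The cluster Naive 2 was flagged because 1 tumour lay apart from the other 3: the share in shared-ending clones minus that in other named clones was -0.0739 percentage points in growing replicate 2, where the cluster held 1 other named cell, and 0 in the rest. Chance flags about 1 in 20 such comparisons of continuous values. That rate does not hold here, where 1 cell sets the flag.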

How the results depend on the processing

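No cluster passed limma's test as reported. Classes, phases and RNA measures could not pass, since their exact tests cannot reach 0.05 with 4 libraries. Of 412 recomputed values 322 kept their direction and side of the threshold and 78 changed sign. Only values tested with limma could change side. Alternative Exhausted stayed higher with the ending in every alternative run (log2 odds 0.30 to 1.11). The cause of these changes was not tested. The number of clusters past limma's threshold, 0 as reported, was 2 without the largest member clone of each library, 1 with each clone of 10 or more cells weighted equally, 3 with all other receptor-labelled cells as comparator and 2 without clones seen in 2 or more tumour libraries. With that comparator these were Initial Activation, Naive 3 and NKT-like, all lower. Elsewhere they were Naive 1 and Naive 2, called higher, which hold 2 and 0 shared-ending cells. With 0 such cells, the odds of Naive 2 on that side come from the 0.5 cell added.

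Without the largest member clone of each library, differences in log2 odds that changed sign were -0.11 (Dividing 2), -0.0061 (Dividing 3), 0.23 (IFN Stimulated), 0.13 (Initial Activation), 0.082 (Intermediate Activation), 0.87 (Naive 3) and 0.80 (NKT-like). So did the differences for exhausted (-1.51), dividing (-0.199) and activated cells (1.97) and G2M calls (-1.23 percentage points), and for UMIs (-0.051) and genes (-0.047, both log2). Without clones seen in 2 or more tumour libraries they were -0.26, -0.18 and -0.28 for Dividing 1, 2 and 3, 0.20 for Highest Activated, 0.34 for IFN Stimulated, 0.021 for Intermediate Activation, 0.67 for Naive 3 and 1.28 for NKT-like. They were -2.80 for dividing, 1.95 for activated and 0.416 for interferon-stimulated cells, 2.50 for G1 and -2.62 for G2M (percentage points), -0.015 for UMIs, -0.030 for genes and -0.000826 for the S score. With clones weighted equally they were 0.098 for Activated Exhausted, -0.074 for Dividing 3, -1.34 for G2M calls, -0.0041 for genes and -0.0158 for the mitochondrial percent. Among 2-chain names Naive 3 had 0.21 and the G2M score 0.00129. With all other labelled cells as comparator Activated Exhausted had 0.13, G2M calls -0.106 and the mitochondrial percent -0.0689. The arcsine scale gave -0.0068 for Naive 2, and 1 cell added in the logit gave 0.17 for Naive 3 and 0.059 for NKT-like. In percentage points, as the sign-flip test takes them, Highest Activated had 0.991 and Naive 2 -0.0185. Outside the Dividing clusters G2M calls had -0.929, and the mean over cells gave 0.00449 for the G2M score.

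Leaving out 1 library at a time gave, for log2 odds, -0.88 to 0.60 (Naive 3), -0.77 to 0.51 (NKT-like), -0.63 to 0.19 (Highest Activated) and -0.051 to 0.61 (Dividing 1). The shared-ending share differed between states by -45.5 to -7.11 percentage points. Between the sides it gave -0.766 to 10.0 for exhausted, 0.140 to 6.75 for dividing and -12.7 to -3.52 for activated cells, -6.54 to -0.0346 for G1 and 0.60 to 4.96 for S calls, 0.0081 to 0.15 for UMIs, -1.19 to 0.189 for interferon-stimulated cells, -0.565 to 2.01 for G2M calls, -0.0185 to 0.0305 for the mitochondrial percent, -0.000678 to 0.000178 for the G2M score, -0.0016 to 0.00851 for the S score and -0.0049 to 0.069 for genes. The difference between the states ran from -17.1 to 15.3 for exhausted, -16.0 to 11.5 for activated, -8.97 to 10.9 for dividing and -0.111 to 0.0370 for NKT-like cells. It ran from -13.6 to 5.92 for G1, -0.365 to 11.4 for S and -5.55 to 2.17 for G2M calls, and from -0.24 to 0.18 for UMIs, -0.14 to 0.081 for genes, -0.104 to 0.0430 for the mitochondrial percent, -0.0113 to 0.0190 for the S score and -0.000887 to 0.00168 for the G2M score.

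The labels give the same numbers to regressing and growing tumours and nothing else pairs them. Deviations of the 13 cluster differences from the state means correlated at 0.0238 between same-numbered libraries. With the numbers as a replicate block, the difference in the shared-ending share stayed at -26.3 percentage points. The exact sign-flip test over 2 pairs gave p = 0.50, the smallest it allows, so it could change no call. The alternative without the other clone that shares its beta chain with members was chosen after seeing the data. It changed no call of limma, the only test that could pass. Depth could not be thinned, since the table holds no gene counts.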
